A study of Helianthemum marifolium subsp. andalusicum and Helianthemum marifolium subsp. marifolium and Helianthemum marifolium subsp. molle with 16 samples.

Results

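The 200 most evenly expressed leaf transcript clusters of Helianthemum marifolium, a small Mediterranean shrub of the rockrose family, are described here. Levels are in CPM, the count of a cluster per 1000000 counts of its library. Members were chosen by measured values: they are the 200 clusters with the lowest SD/mean of CPM over 16 libraries, among clusters with a mean of at least 10 CPM and with the 200 clusters of highest mean CPM left out. They were drawn from 12820 such clusters, 1.56% of them, in a table of 100462 clusters of assembled transcripts. Since these values chose the members, their evenness over the 16 libraries is a description and was not tested.

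Poly-A RNA was sequenced from adult leaves of 4 subspecies, andalusicum, marifolium, molle and origanifolium, with 4 libraries each. All plants were raised from seed in a greenhouse and sampled at day 446 after sowing, which the groups share. Each title also holds 1 of 8 codes, and the meaning of the code is not stated. Every code covers 2 libraries of a single subspecies, so the groups differ by code as well as by subspecies. Whether each library is a different plant is not stated either, so a p-value covers no more than the spread of these libraries, which may be technical. Libraries are named by subspecies and library number.

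Genes whose transcripts stay at a constant level are often called housekeeping or reference genes. In plants, as in other organisms, they are typically sought among genes for basic cell functions such as protein turnover, vesicle transport, RNA processing and the cytoskeleton. They are used as internal standards in quantitative PCR, where a target's level is expressed relative to transcripts that vary little between samples. The files pair no gene names or sequences with the clusters, so neither the functions of the even clusters nor markers of leaf tissue are analysed here. Identifiers are printed for 4 members, and the others are named by their rank in evenness, rank 1 being the most even.

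Library totals ran from 22170314 counts in origanifolium 31 to 34121011 in molle 22, 1.54 times as many. No pair of libraries of a subspecies agreed within sampling noise (chi-square per degree of freedom 75.4 to 192). Of the counts of marifolium 12 and 18, 1.60% and 2.52% lay in 6240 clusters picked for having over 95% of their counts in these libraries. No other library exceeded 0.00570% there, which the pick itself limits. The same count is not given here for other pairs of libraries. The rule on evenness keeps such clusters out of the members, and 1 of the 13020 clusters with a mean of at least 10 CPM was among them. The choice made without both libraries is given with the other scalings.

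The 200 members had an SD/mean from 7.74% to 17.1%, with a median of 15.6%, against a median of 36.8% over all 13020 clusters with a mean of at least 10 CPM. Their lowest count in any library was 197, so every member was detected in every library. The highest library stood at 1.75 times the lowest in the median member, with a range from 1.35 to 2.23 times, and 183 of 200 members stayed under 2-fold. Over all 13020 clusters 4.52% stayed under 2-fold. The median of that ratio was 3.76 in the 12426 clusters with a count in every library.

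**Figure D1:**
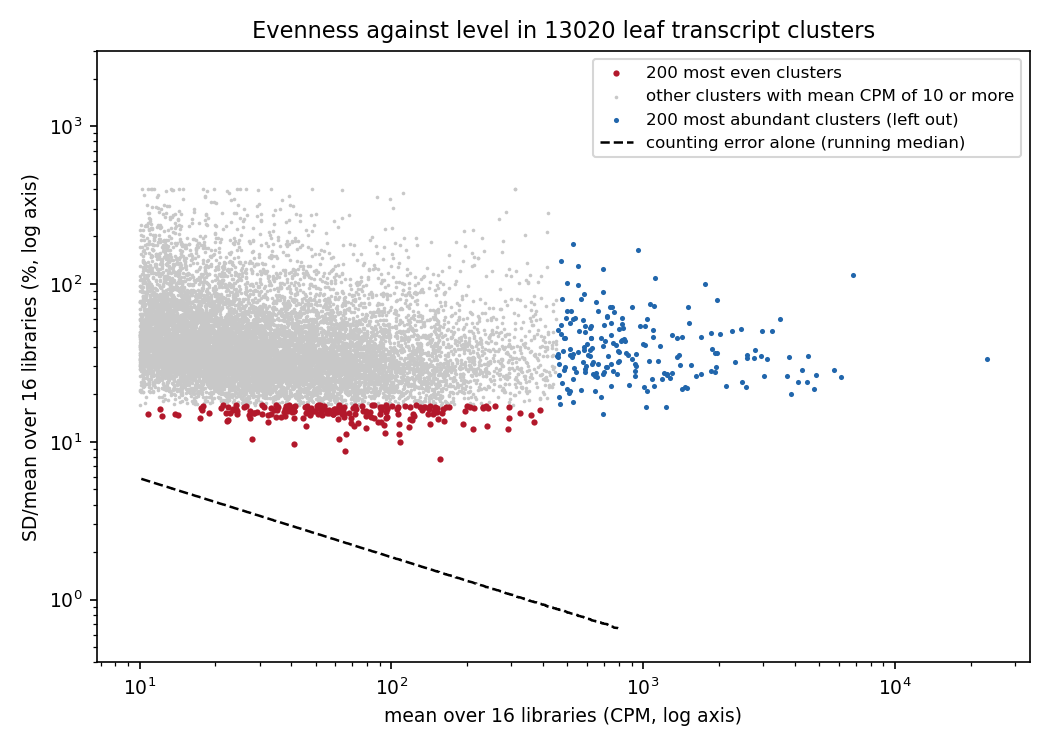
Evenness against level, both on log axes: each point is a cluster, with its mean CPM over 16 libraries on the x axis and its SD/mean in percent on the y axis. The 200 even clusters (red) form the lower edge between 7.74% and 17.1%, all above the dashed line that counting error alone gives (median 2.36% for the even clusters).

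Even clusters had mean levels between 10.8 and 389 CPM, with a median of 62.1 CPM. They made up 0.232% of the 4314 clusters between 10 and 20 CPM and 1.34% of the 4837 between 20 and 50 CPM. Their share was 3.21% of the 2181 clusters between 50 and 100 CPM, 3.76% of the 1011 between 100 and 200 CPM and 3.97% of the 428 between 200 and 400 CPM. None of the 49 clusters between 400 CPM and the top of the pool at 452 CPM was a member (0 of 49). Up to 400 CPM, the median SD/mean of all clusters in these bins was 43.5%, 35.3%, 32.8%, 31.1% and 33.8%. Counting error alone would give a median of 4.95% between 10 and 20 CPM and 1.14% between 200 and 400 CPM.

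Counting error accounted for little of the remaining variation. Poisson counting alone would give the members an SD/mean of 2.36% in the median, which is 2.42% of the squared SD/mean that was observed. The share was largest, 14.1%, in the member of lowest level (rank 64, 10.8 ± 1.62 CPM, SD over 16 libraries), a transcript of 1864 nt that ran from 8.07 CPM in origanifolium 33 to 14.1 CPM in andalusicum 8. It was smallest, 0.348%, in the member of highest level, Cluster-3823.45572 (rank 121, 389 ± 62.1 CPM, n = 16). Cluster-3823.45572 ran from 260.7 CPM in andalusicum 3 to 515 CPM in molle 27, in different subspecies. Counting error is the only error in these shares, and reads without molecular identifiers are not independent molecules.

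The most even cluster was Cluster-3823.45773, a single transcript of 1724 nt at 155 ± 12.0 CPM (SD, n = 16). It stood at 158, 144, 160.4 and 162 CPM in andalusicum 1, 3, 6 and 8. In marifolium 12, 15, 17 and 18 it had 144, 173, 153 and 163 CPM. Molle 22, 25, 27 and 29 held 160.4, 146, 149 and 150.6 CPM. Origanifolium 31, 33, 38 and 39 held 137, 146, 185 and 153 CPM, which include both the lowest and the highest library. The 4 subspecies overlapped, with means of 156 ± 8.13 CPM for andalusicum, 158 ± 12.3 CPM for marifolium, 152 ± 6.18 CPM for molle and 155 ± 20.9 CPM for origanifolium (SD, n = 4 each).

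The next 4 in order varied by 8.74% to 10.4%. The rank 2 cluster stood at 65.6 ± 5.73 CPM, with 55.0 CPM in marifolium 18, a median of 66.1 CPM and 74.0 CPM in andalusicum 1. The rank 3 cluster stood at 41.2 ± 3.97 CPM, from 35.1 CPM in origanifolium 39 to 49.1 CPM in molle 27 around a median of 41.3 CPM. In both, libraries of every subspecies lay on either side of the median. The rank 4 cluster stood at 108 ± 10.8 CPM, from 92.0 CPM in molle 25 to 130.1 CPM in andalusicum 8. Its molle mean of 97.5 ± 5.93 CPM was the lowest and its andalusicum mean of 117 ± 11.4 CPM the highest, and the ranges of these groups met at 104.5 CPM in molle 27 and 102 CPM in andalusicum 3. The rank 5 cluster stood at 27.9 ± 2.90 CPM, from 22.9 CPM in marifolium 12 to 33.3 CPM in andalusicum 6.

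**Figure D2:**
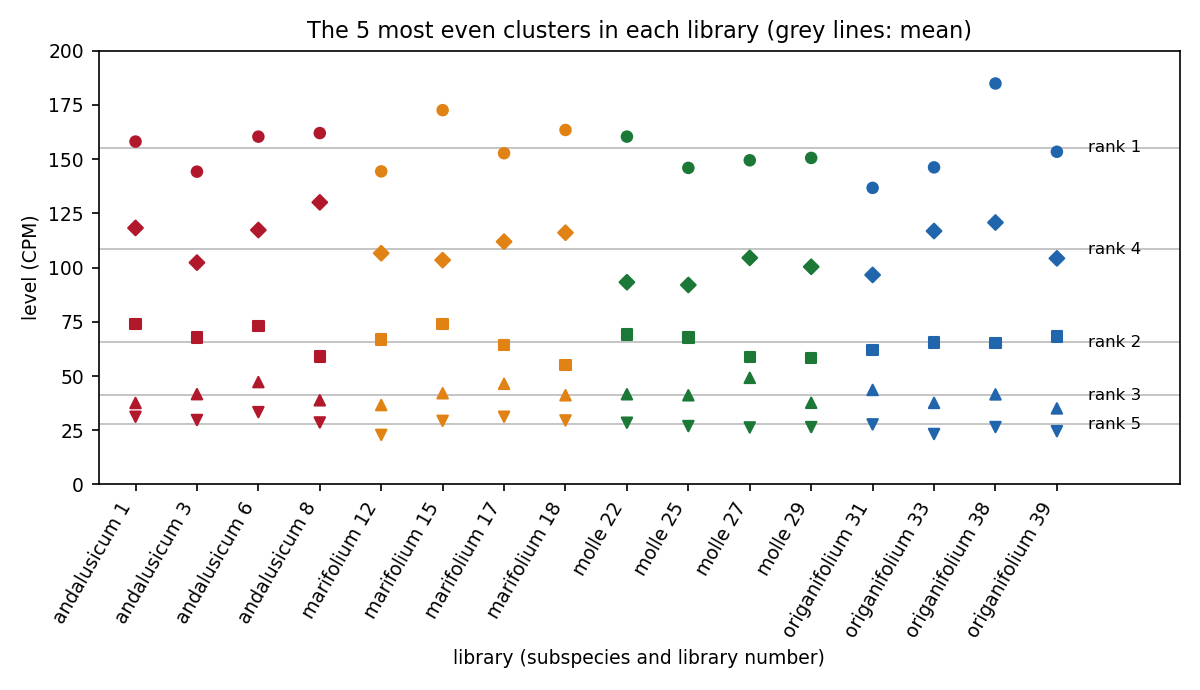
Levels of the 5 most even clusters in CPM (y axis) in each of the 16 libraries (x axis), coloured by subspecies, with a grey line at each cluster's mean. The rank 1 cluster stays between 137 and 185 CPM, and the rank 5 cluster between 22.9 and 33.3 CPM.

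No gap in evenness separated the members from the other clusters. The last 2 members had an SD/mean of 17.070% and 17.074%, at 24.1 and 51.2 CPM. The first 2 clusters outside had 17.076% and 17.079%, at 10.05 and 87.3 CPM. Among the 200 most abundant clusters, which were left out, 3 were at least as even as the last member. These stood at 694 ± 104, 1026 ± 171 and 1234 ± 205 CPM (SD, n = 16), with an SD/mean of 15.0%, 16.7% and 16.6%.

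The largest share of the variation left in the members lay between libraries of the same code. Of a member's sum of squares over the 16 libraries, the median share between subspecies was 22.8%, between the codes of a subspecies 23.6%, and between the libraries of a code 47.9%. By degrees of freedom alone the shares would average 20%, 26.7% and 53.3%. Over all 13020 clusters the medians were 30.8%, 22.7% and 41.8%. Subspecies took over 50% of the sum of squares in 15 members (7.50%), against 20.3% of all 13020 clusters.

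The means of the 4 subspecies lay close together. The highest subspecies mean was 1.19 times the lowest in the median member, from 1.04 to 1.44 times, and it was under 1.2 times in 107 members and under 1.5 times in 200 of 200. In the 12903 clusters with a count in every subspecies the median was 1.68 times. Origanifolium was highest in 32.5% of members, andalusicum in 27.0%, marifolium in 23.0% and molle in 17.5%. Over the 13020 clusters these shares were 27.8%, 27.0%, 24.2% and 21.0%, in the same order. Marifolium was lowest in 28.5% of members, molle in 27.5%, origanifolium in 25.5% and andalusicum in 18.5%, against 23.9%, 26.8%, 28.4% and 20.9% of the 13020 clusters.

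Within a subspecies the members varied least in origanifolium, with a median SD/mean of 11.4% over its 4 libraries. The medians were 13.5% in molle, 13.8% in andalusicum and 14.3% in marifolium. The order was the same over all 13020 clusters, at 26.1%, 28.3%, 29.8% and 34.4% (clusters with a count in the subspecies). Libraries of a code differed by a median of 1.11 times (origa255) to 1.18 times (marif089) in the members. The same codes were lowest and highest among the 13020 clusters, at 1.28 and 1.55 times (clusters with a count in both libraries).

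The members seen together separated the libraries less than all clusters did. Over the 200 members, 8 of 16 libraries had their nearest neighbour (root mean square difference of log2(CPM + 1)) in their own subspecies and 3 in their own code. Over the 13020 clusters these counts were 16 and 12. Between subspecies the mean distance in the members was 0.31 ± 0.02, between codes of a subspecies 0.30 ± 0.03 and between libraries of a code 0.29 ± 0.03 (SD over 96, 16 and 8 pairs, which share libraries). Over the 13020 clusters these distances were 1.21 ± 0.07, 1.04 ± 0.08 and 0.98 ± 0.08. The choice for evenness limits the members' distances and bears on their counts of neighbours. The sets also differ in size, and no other set of 200 clusters is compared here.

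The members rarely moved together. Over the 19900 pairs of members, the correlation of log2 CPM over 16 libraries had a median of 0.05, with quartiles of -0.15 and 0.23, and 8 pairs were above 0.8. The first component of the members' log2 levels held 13.2% of their variance, the second 12.1% and the third 9.24%, where an even spread over the 15 possible components would give 6.67% each. The points share library, depth and scaling. Such values are not given here for other clusters, and the choice for evenness leaves out clusters that follow a large shared shift between libraries. The pair that kept the most constant ratio was rank 106 and rank 159, at 195 ± 30.7 and 136 ± 22.7 CPM. Their ratio had a mean of 1.44 ± 0.0647 and stayed between 1.33 and 1.57 in the 16 libraries, although each cluster by itself varied by over 15%. Both hold transcripts under an assembler gene name that links more than 50 clusters, and such names were left out by a limit set here. Whether the pair are separate genes was not tested. Over all pairs, the SD of the log2 ratio had a median of 0.31.

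Together the members took 1.72% of a library's counts in the mean, from 1.66% in molle 27 to 1.78% in andalusicum 6, an SD/mean of 2.74%. The 200 most abundant clusters took 21.7% (marifolium 17) to 32.0% (molle 25), an SD/mean of 11.9%. The members were chosen for evenness over these libraries and the abundant clusters were not, so the choice itself holds the members' value down. The members' sum was 1.73 ± 0.0581% for andalusicum, 1.70 ± 0.0473% for marifolium, 1.70 ± 0.0536% for molle and 1.74 ± 0.0346% for origanifolium (SD, n = 4 each), and all 4 subspecies overlapped.

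In 5 libraries, andalusicum 1 and 6, marifolium 17, molle 22 and origanifolium 33, the median member stood above its own mean, by 0.05 to 0.09 on the log2 scale. In the other 11 it stood below by up to 0.06. In those 5 libraries the 200 most abundant clusters took the lowest shares, 21.7% to 25.0%, and in the other 11 they took 26.4% or more. The part of the abundant clusters' share in the members' levels was not tested. Over all 13020 clusters the library median ran from 0.08 in andalusicum 1 to -0.18 in molle 25. Its SD over libraries was 0.0912, against 0.0520 in the members, which the choice for evenness holds down.

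**Figure D3:**
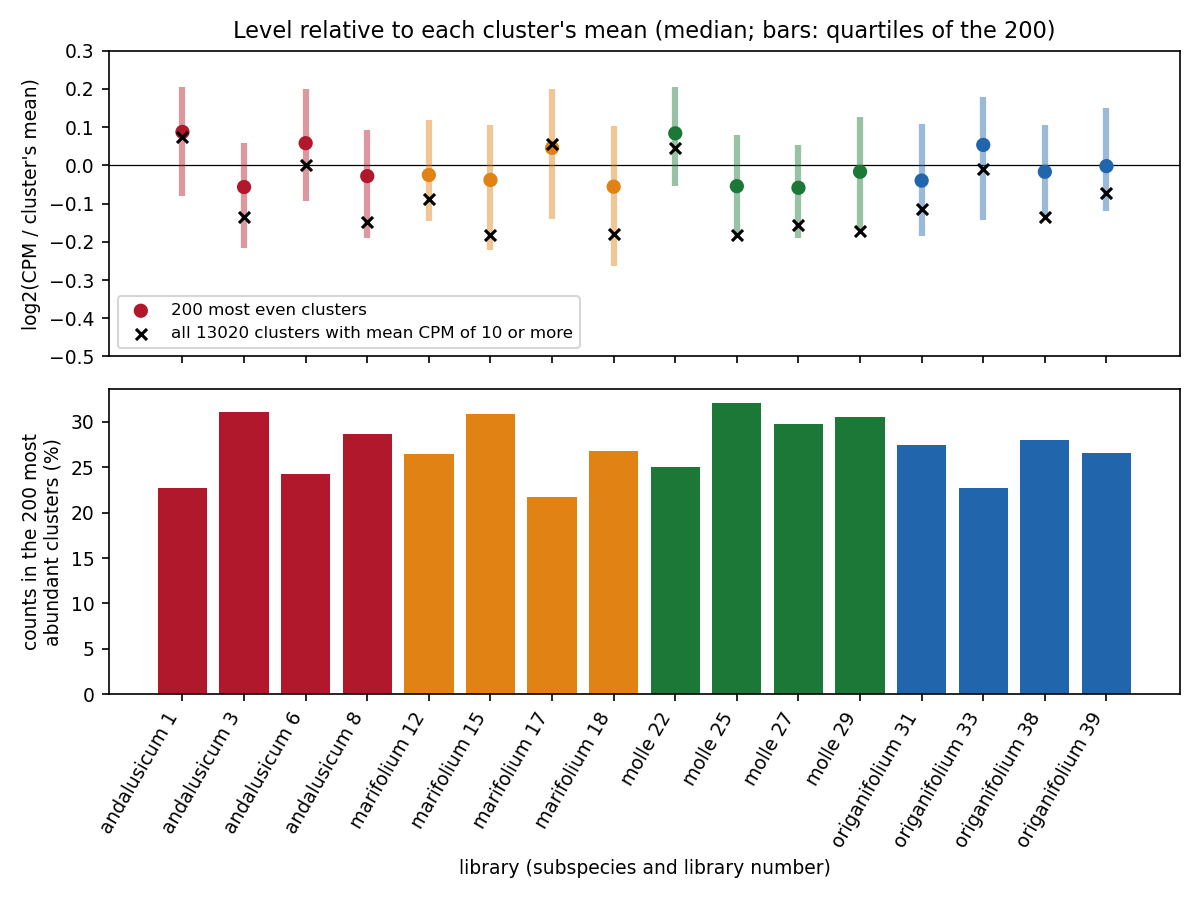
Upper panel, log2 of CPM over each cluster's mean in each library: coloured points are the median of the 200 even clusters with bars from the first to the third quartile, and crosses the median of all 13020 clusters. Lower panel, percent of counts in the 200 most abundant clusters: it is lowest in the 5 libraries where the even clusters stand above 0, at 21.7% to 25.0%.

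No member passed the test across the 4 subspecies. In the edgeR quasi-likelihood F-test on all 46027 tested clusters, 0 of 200 members had a Benjamini-Hochberg adjusted p under 0.05, where 5.78% of tested clusters did. That share treats both libraries of a code as separate samples: with the libraries of each code summed, 20 of 68481 clusters were called, against 2661 of 46027. Leaving out any origanifolium library, andalusicum 3 or 8, or molle 25 gave 1460 to 1721 calls, and leaving out marifolium 15 gave 3962. Each of the other libraries left out gave 1786 to 2664 calls. All 200 members had passed the filter on low counts. At an unadjusted p under 0.05 there were 2 members, where 25.7% of tested clusters were. DESeq2 called 5 members, where it called 16.3% of clusters. Against the other 3 subspecies, edgeR also called 0 of 200 members for andalusicum (3.79% of tested clusters called), marifolium (2.25%), molle (2.42%) and origanifolium (3.41%). In the same order, DESeq2 called 2, 1, 2 and 1 members, where it called 9.03%, 9.43%, 7.81% and 9.63% of clusters. The unadjusted p of edgeR was under 0.05 for 5, 2, 7 and 5 members, where it was for 18.8%, 18.9%, 17.2% and 19.9% of clusters. Between the codes of a subspecies edgeR called 0 members, where 0.0326% of clusters were called. At an unadjusted p under 0.05 there were 2 members (7.85% of clusters), and DESeq2 called 1 (4.08% of clusters). The choice of members used all 16 libraries and bounds every one of these differences, so nothing is read from the counts. The dispersions that edgeR estimated per cluster gave the members a biological coefficient of variation of 26.3% in the median (22.7% to 34.1%). This is above their observed SD/mean. These dispersions draw on all tested clusters and are not the ones behind the F-test.

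A p above the threshold does not show that the subspecies were equal, and the members furthest from the others kept ratios between 0.742 and 1.28. In such bulk leaf samples, fewer cells of a type and less RNA per cell cannot be told apart. Cluster-3823.44625 (rank 128) was the furthest below the others in any subspecies. It had 125, 103, 91.8 and 127 CPM in andalusicum, against 125 to 169.9 CPM in the 12 other libraries. Of the 12 others, marifolium 18 alone fell within the andalusicum range. The mean was 112 ± 16.9 CPM in andalusicum (n = 4), against 150.6 ± 14.6 CPM elsewhere (n = 12), a ratio of 0.742. The log2 fold change was -0.48 ± 0.15 SE (edgeR adjusted p = 0.0889, 0.00269 to 0.367 over 22 alternatives, of which DESeq2 alone was under 0.05).

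Cluster-3823.44040 (rank 131), a transcript of 1453 nt, was the furthest above. It had 55.0, 73.0, 82.2 and 72.6 CPM in andalusicum, against 50.3 to 66.9 CPM elsewhere. Andalusicum 1 lay within the range of the others, and the remaining 3 andalusicum libraries lay above it. The mean was 70.7 ± 11.4 CPM in andalusicum and 55.0 ± 4.72 CPM in the others, a ratio of 1.28 (log2 fold change 0.31 ± 0.14 SE, edgeR adjusted p = 0.254).

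In marifolium, the member furthest above was rank 148, at 70.1, 66.7, 50.3 and 60.8 CPM in marifolium and 35.9 to 55.2 CPM elsewhere. Marifolium 17 lay within the range of the others, and the remaining 3 marifolium libraries above it. Its mean was 62.0 ± 8.70 CPM in marifolium and 49.8 ± 6.50 CPM in the others (ratio 1.24, edgeR adjusted p = 0.327). The member furthest below was rank 82, a transcript of 1448 nt, at 229.6, 264, 308 and 254.4 CPM in marifolium and 305 to 399.6 CPM elsewhere. Marifolium 17 alone reached the range of the others. The mean was 264 ± 32.9 CPM in marifolium and 344 ± 36.0 CPM in the others (ratio 0.768, log2 fold change -0.42 ± 0.15 SE, edgeR adjusted p = 0.137, DESeq2 0.0248).

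In molle, the member furthest above was rank 60, at 61.4, 50.1, 62.7 and 50.9 CPM in molle and 36.8 to 54.2 CPM elsewhere. Molle 25 and 29 lay within the range of the others. Its mean was 56.3 ± 6.71 CPM in molle and 44.8 ± 4.57 CPM in the others (ratio 1.26, log2 fold change 0.42 ± 0.14 SE, edgeR adjusted p = 0.131, DESeq2 0.0116). The member furthest below was rank 124, at 90.4, 92.2, 95.4 and 64.8 CPM in molle and 82.6 to 126 CPM elsewhere. Molle 29 alone lay below all others. Its mean was 85.7 ± 14.1 CPM in molle and 112 ± 12.3 CPM in the others (ratio 0.766, edgeR adjusted p = 0.393).

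In origanifolium, the member furthest above was rank 162, a transcript of 2599 nt, at 159, 123, 153 and 167 CPM in origanifolium and 91.3 to 155 CPM elsewhere. Origanifolium 31 and 39 lay above the range of the others. Its mean was 150.5 ± 19.3 CPM in origanifolium, against 123 ± 18.3 CPM elsewhere (ratio 1.22, edgeR adjusted p = 0.383). The member furthest below was rank 147, at 18.2, 17.6, 14.9 and 16.8 CPM in origanifolium and 16.4 to 26.0 CPM elsewhere. Only marifolium 15 among the 12 others fell within the origanifolium range. The mean was 16.9 ± 1.42 CPM in origanifolium, against 22.3 ± 2.74 CPM elsewhere (ratio 0.755, log2 fold change -0.41 ± 0.17 SE, edgeR adjusted p = 0.189, DESeq2 0.0424).

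All 4 libraries of a subspecies lay beyond all 12 others in a single member. In the rank 16 cluster, picked out after its values were seen, molle had 82.2, 82.1, 82.1 and 83.7 CPM, against 55.1 to 78.5 CPM in the 12 others. It is thus 1 of 200 members with molle above, where 0.732% of tested clusters had molle above. Its mean was 82.5 ± 0.778 CPM for molle, 71.6 ± 6.41 CPM for andalusicum, 67.0 ± 5.64 CPM for marifolium and 62.6 ± 5.73 CPM for origanifolium (SD, n = 4 each). Its SD/mean of 0.942% within molle was the lowest of the 200 members there. That is below counting error, which alone gives a median of 2.27% in clusters between 50 and 100 CPM, so nothing is read from it. The log2 fold change of molle against the others was 0.40 ± 0.12 SE (edgeR adjusted p = 0.112, DESeq2 0.00371). No member (0 of 200) had molle below all others (0.335% of tested clusters). The counts were also 0 of 200 for andalusicum above (1.28%) and below (0.348%), marifolium above (0.532%) and below (0.450%), and origanifolium above (1.51%) and below (0.330%).

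**Figure D4:**
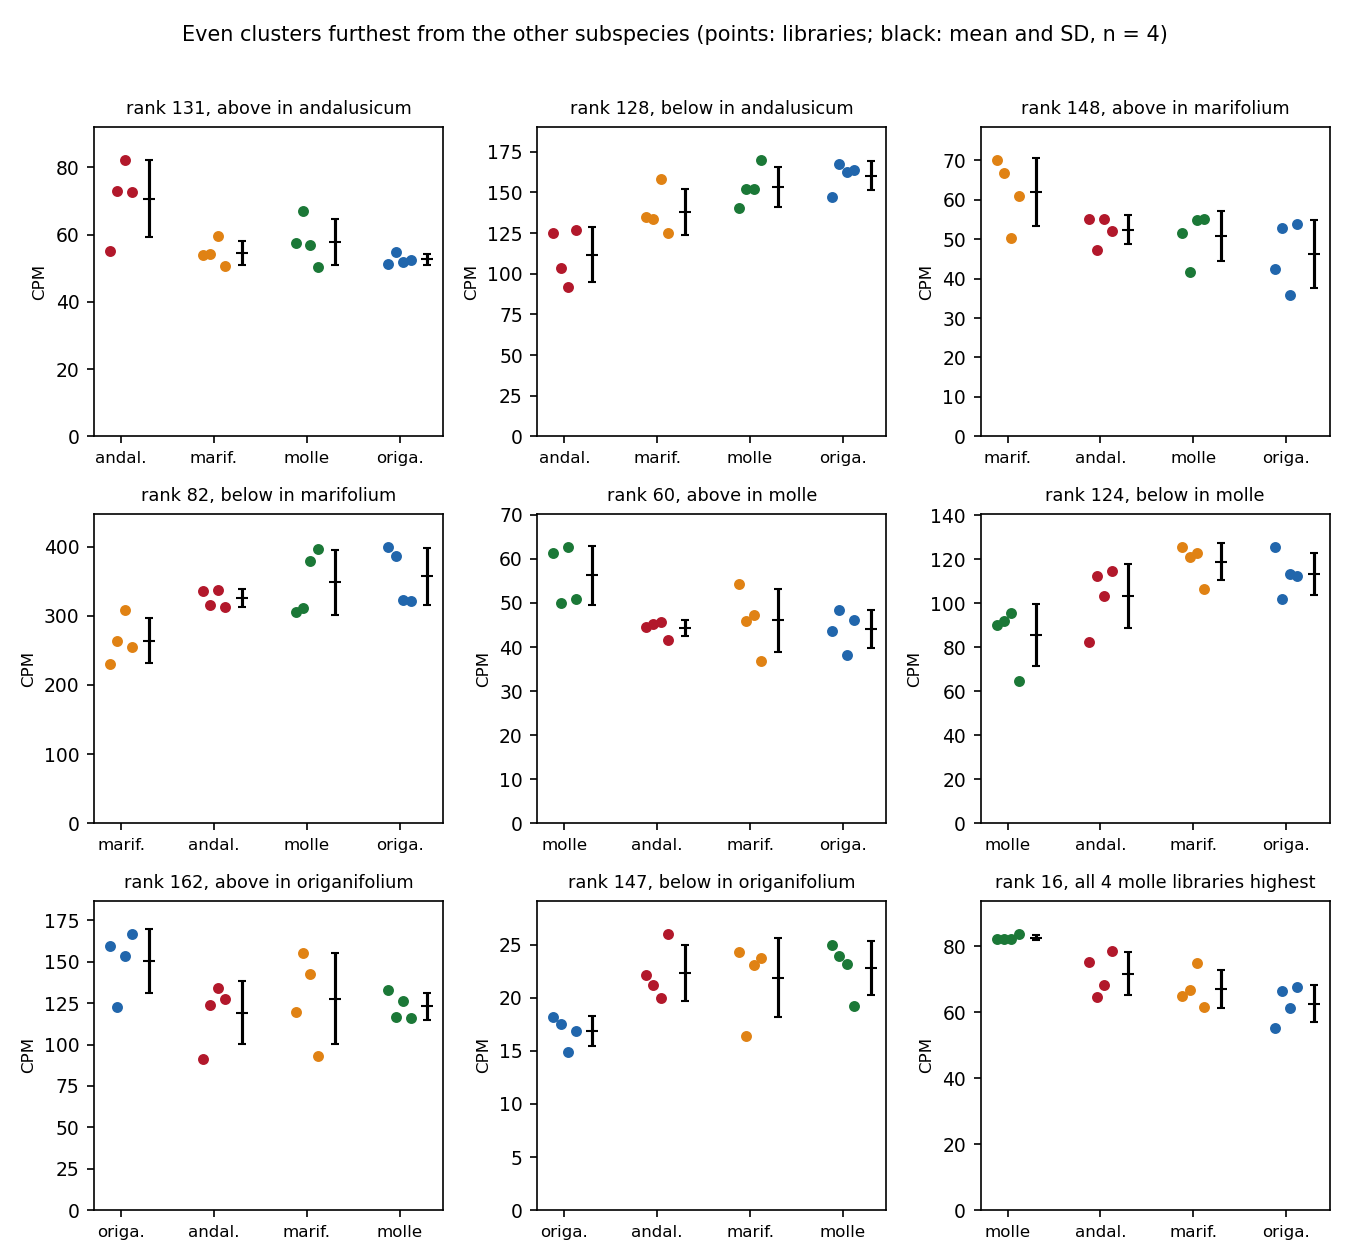
CPM (y axis, from 0) by subspecies in 9 even clusters: the 8 furthest above or below the others in each subspecies, and the rank 16 cluster. Points are libraries and black bars the mean and SD (n = 4), and the named subspecies is at the left. In 8 of the 9 panels its libraries overlap those of the others, and in rank 16 the 4 molle libraries lie between 82.1 and 83.7 CPM above all others.

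Besides these picks and rank 16, DESeq2 called 3 members, described here after their values were seen. The rank 35 cluster had a mean of 250.4 ± 36.0 CPM in andalusicum and 307 ± 33.1 CPM in the others (DESeq2 adjusted p = 0.0131, edgeR 0.173). The rank 188 cluster was called across the 4 subspecies, with means of 50.6 ± 8.78, 62.8 ± 3.66, 58.1 ± 8.65 and 45.6 ± 4.87 CPM in andalusicum, marifolium, molle and origanifolium (DESeq2 adjusted p = 0.0222, edgeR 0.208). The rank 154 cluster was called between codes. Its highest library was andalusicum 6, at 234 CPM. It had 210.1 and 206 CPM in origanifolium 38 and 39 (code origa255), against 148 and 139 CPM in origanifolium 31 and 33 (code origa247; DESeq2 adjusted p = 0.000664, edgeR 0.633).

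The members were chosen in all 16 libraries, so their own evenness could not be checked in libraries left out. Sets that the rule gives in fewer libraries, which are not the members, could be followed in the others. The same rule was applied to the 12 libraries of 3 subspecies, and the 200 clusters it gave were then followed in the 4 libraries of the subspecies left out. For origanifolium, clusters chosen in the other 3 subspecies had a median SD/mean of 14.1% over the 4 origanifolium libraries, against 26.2% over the 13037 clusters with a mean of at least 10 CPM in the 12. Of these, 12964 had a count in the 4 left-out libraries, and the others were ranked as the least even. For molle these medians were 18.1% and 28.5%, for andalusicum 20.6% and 30.0%, and for marifolium 22.1% and 34.5%. In the 12 libraries used for the choice they had been 14.9%, 14.4%, 14.0% and 13.4% for the chosen clusters. Those values span 3 subspecies and include differences between them, so they are not the same measure as the SD/mean within 4 libraries.

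By rank within the left-out libraries, the chosen clusters had a median percentile of 16.6 for origanifolium, 22.9 for molle, 23.2 for marifolium and 26.2 for andalusicum. Of 200 chosen clusters, 177, 168, 168 and 157 were in the lower 50% of SD/mean, and 69, 51, 52 and 47 in the lowest 10%. The single clusters were widely spread, with an SD of the percentile between 19.4 and 21.2. Chosen clusters were not matched to the others in level, and over the 16 libraries SD/mean was higher at 10 to 20 CPM than above. With a mean of at least 20 CPM the median percentiles were 19.1 for origanifolium, 25.7 for molle, 27.3 for marifolium and 27.2 for andalusicum. The part of level in these differences was not tested.

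The mean in the 4 left-out libraries was within 1.2-fold of the mean in the 12 for 70.0% of the clusters chosen without molle, 69.5% without andalusicum, 65.5% without marifolium and 61.0% without origanifolium. Over all clusters with a mean of at least 10 CPM in the 12, 45.5%, 47.1%, 45.5% and 39.9% were within 1.2-fold. The largest shift of a chosen cluster was 1.18 on the log2 scale, in marifolium. Of the 200 chosen without a subspecies, 122 were among the members for molle and for origanifolium, 104 for andalusicum and 97 for marifolium.

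**Figure D5:**
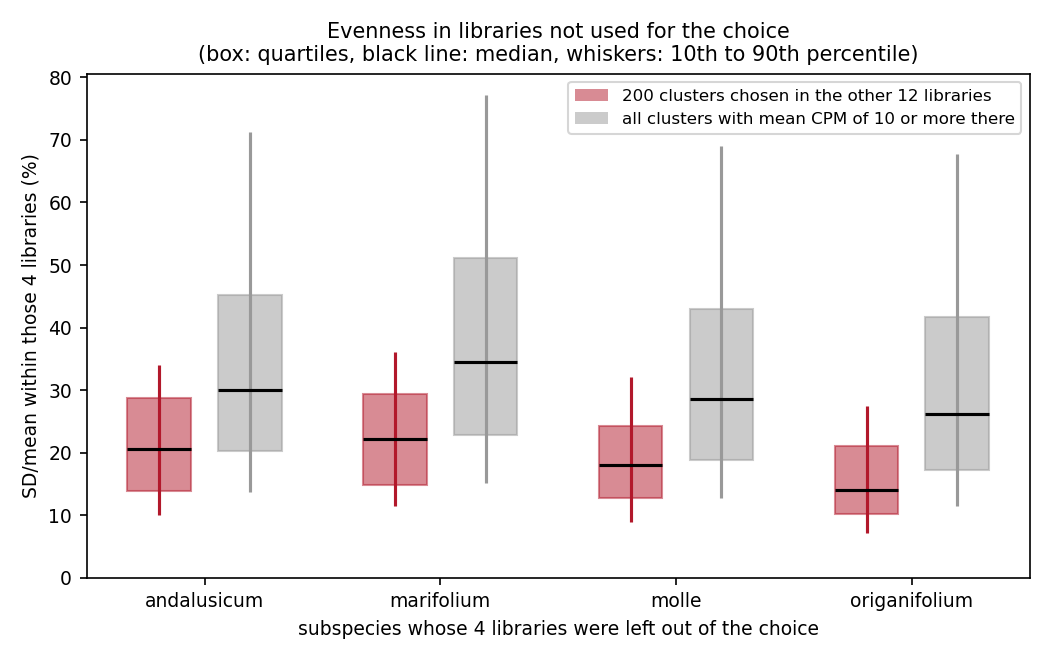
SD/mean in percent (y axis) within the 4 libraries of the subspecies left out of the choice (x axis), for the 200 clusters chosen in the other 12 libraries (red) and for all clusters with a mean of at least 10 CPM there (grey). Red and grey sets are not matched in level. Boxes are quartiles, black lines medians and whiskers the 10th to 90th percentile; the chosen clusters have the lower median in each subspecies, from 14.1% against 26.2% in origanifolium to 22.1% against 34.5% in marifolium.

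Which clusters were the most even depended on how libraries were scaled. With the trimmed mean of M-values (TMM) in place of library totals, 113 of the 200 members were chosen again, and with DESeq2 size factors 122. The sets chosen then were about as even, with a median SD/mean of 14.7% and 14.6%. TMM factors ran from 0.892 in molle 25 to 1.18 in marifolium 17. Scaling to the counts outside the 200 most abundant clusters, added after the data were seen, kept 145 members. Without marifolium 12 and 18, 132 were kept.

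The members at the head of the order were kept more often. Of ranks 1 to 50, 44 were chosen again under every one of 5 settings (both scalings, the SD of log2 levels, equal depth, and without marifolium 12 and 18) and with any 1 of the 16 libraries left out. Of the last 50 ranks, 0 were. No gap lies at the limit, so members near it drop out with small changes, and this contrast is in part fixed by the cutoff. In all, 72 of 200 members were kept throughout. The first 5 members had ranks 7, 5, 13, 3 and 1 under TMM and 7, 1, 14, 5 and 3 under DESeq2 size factors. Under these scalings Cluster-3823.45773 varied by 11.1% and 10.7%, and the rank 5 cluster by 10.02% and 10.3%. All 8 members furthest from the other subspecies lay outside the 200 under TMM, at ranks from 315 (Cluster-3823.44040) to 591 (Cluster-3823.44625). So did the member of highest level, Cluster-3823.45572 (rank 231), that of lowest level (rank 415) and both of the pair with the steadiest ratio (ranks 334 and 452).

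How the members were assembled was not part of the choice. A single transcript made up 190 of the 200 clusters, against 95.8% of the 13020, while 8 held 2 transcripts and 2 held 3. Of their 212 transcripts, 51.4% bore names of the form that Trinity writes, against 60.0% in the 13020 clusters, and the others bore names of the form that Oases writes, which give a length. Lengths known for 100 members ran from 294 to 7670 nt with a median of 1807 nt, against a median of 1778 nt for 5234 of the 13020 clusters.

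For 27 members the assembler's gene name was shared with other counted clusters. Gene names that link more than 50 clusters were left out, which affected 2 members. Reads of a gene split over such clusters may have been shared between them. Other clusters of these genes with a mean of at least 10 CPM numbered 14 that were not members. These had been in the ranking, which placed them outside the limit, and they had a median SD/mean of 21.8% (17.2% to 57.6%). The same median was 41.7% over the 1138 clusters that share a gene name with any of the 13020 clusters and are not members, these 14 included. No test was made, since clusters of a gene are not independent.

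Counts of a member were also summed with those of the other clusters of its gene. The other clusters held over 10% of the sum for 14 of 27 members and under 1% for 6. Each sum contains a member chosen for evenness, so the sums are a description. The sum had a lower SD/mean than the member for 15 of 27 members and a higher one for 12, and 18 sums stayed at or under the 17.1% of the last member. The median of the 27 sums was 16.2%, against 15.3% for the members alone. The following genes were picked out after their values were seen. Ranks 67 and 141, at 122 and 47.9 CPM, were clusters of the same gene, whose sum is counted under both. With a further cluster at 118 CPM and an SD/mean of 20.1%, which was not a member, their sum reached 288 CPM and varied by 13.8%. Rank 81 stood at 22.9 CPM with an SD/mean of 15.2%, while its gene summed to 75.9 CPM and varied by 25.3%. Rank 50 stood at 12.3 CPM with 14.6%, and its sum of 13.8 CPM varied by 27.1%.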

How the data were processed

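The deposited file holds unnormalised counts, whole numbers for each library and cluster of assembled transcripts, and a second file pairs transcript names with clusters. FastQC is named in the submitters' processing notes. How reads were assembled, clustered, aligned and counted, and with which strand, was not given in the sources used here. Reads of paralogs, alleles and antisense transcripts may be shared between clusters.

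All 16 columns were matched to libraries by title (0 unmatched). The members, tests and alternatives were chosen with earlier results of these data known. Members were chosen as stated in the opening. Counts were tested with edgeR 4.0.16 in R 4.3.3 (quasi-likelihood F-test with TMM factors and filterByExpr, p adjusted after Benjamini and Hochberg over 46027 clusters, threshold 0.05), each subspecies against the unweighted mean of the other 3, and the codes in a model with 8 codes. DESeq2 1.42.0 was an alternative. Held-out subspecies, sums of squares, distances and pairs used numpy 2.4.6 and pandas 2.3.3. Thinning to 22170314 counts used seed 1. The test, the choice and the sum-of-squares split were run on simulated data with planted answers. The planted even clusters stood well apart from the others, and the planted changes were larger than those between subspecies in the members. These runs therefore do not cover differences as small as those described here.

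Members described singly were, by rule, the 5 most even, those of highest and lowest level, those at the limit, the furthest above and below in each subspecies by the ratio of means, those with the largest and smallest share of counting error, and the pair of steadiest ratio. Pathway and marker lists could not be applied without gene names. No library sequences were used.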

Additional observations from a re-analysis of the deposited data

Results flagged for a closer look

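In 88 groups of 4 libraries, over 19 members described singly and 3 library summaries, 4 held a library far from the other 3 (Dixon's test at the 95% level), where chance gives about 1 in 20. The summed share of the 200 members was 1.77% of counts in marifolium 17, against 1.67% to 1.68% in the other marifolium libraries. The rank 124 cluster, the furthest below in molle, stood at 64.8 CPM in molle 29, against 90.4 to 95.4 CPM in the other molle libraries. The rank 147 cluster, the furthest below in origanifolium, stood at 16.4 CPM in marifolium 15, against 23.1 to 24.3 CPM in the other marifolium libraries. The rank 106 cluster stood at 280.4 CPM in marifolium 18, against 188 to 199.9 CPM in the others of marifolium.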

How the results depend on the processing

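The number of members chosen again fell to 113 with TMM, 122 with DESeq2 size factors and 132 without marifolium 12 and 18, and ran from 141 to 175 when 1 library was left out. The other settings kept 145 or more. DESeq2 called 5 members across the 4 subspecies, 2 for andalusicum, 1 for marifolium, 2 for molle, 1 for origanifolium and 1 between codes, where edgeR called 0 under every setting run, leaving out each library included. Among all tested clusters, calls across the 4 subspecies were 2661 in edgeR, 7393 with DESeq2, 1422 with at least 1 CPM in 8 libraries, 20 after summing both libraries of every code and 1204 without marifolium 12 and 18. Calls between codes were 15 in edgeR, 1660 with DESeq2 and 1154 without a filter. Over all settings, calls ran from 61 to 4088 for andalusicum (1745 in the main test), from 15 to 9493 for marifolium (1034), from 48 to 3539 for molle (1114) and from 17 to 4275 for origanifolium (1571), lowest with codes summed. The cause of these shifts was not tested. The median SD/mean of the 200 chosen ran from 14.6% to 15.7% over the settings, which the choice itself holds down, and the median share between subspecies from 21.3% to 26.4%. Under TMM the held-out median percentile was 21.8 for andalusicum, 20.3 for marifolium, 20.6 for molle and 21.7 for origanifolium, and with a mean of at least 20 CPM it was 27.2, 27.3, 25.7 and 19.1. No paired analysis was possible because the subspecies share no library numbers. In the shallowest library the limit that 0 counts allow is 0.135 CPM, and the lowest level of any member in any library was 7.69 CPM.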
